A study of Mus musculus with 10 samples.

Results

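The piRNA pathway genes were 10 genes named for their part in making or using PIWI-interacting RNAs: Piwil1, Piwil2, Piwil4, Tdrd1, Tdrd6, Tdrd9, Mael, Ddx4, Mov10l1 and Tdrkh. They were chosen by name, and the values of all RefSeq coding transcripts of a gene were summed, which gave 10 of the 16082 RefSeq genes listed in at least 1 sample. RNA was sequenced from C57BL/6 mice aged 3 to 5 months. Controls had received an intraperitoneal saline injection and the cadmium group a single injection of 3 mg/kg cadmium chloride, with 50 mice in each group, and tissue was taken at day 35. Strain, age, injection and number of mice are as the labels give them. The paper, which covers the control samples, gives another age and a larger number of mice, and mentions no saline injection. Mature sperm (4 control and 2 cadmium samples) and whole testes (2 control and 2 cadmium samples) were compared. Each control sperm sample pooled several mice, sperm were treated with a lysis buffer against somatic cells, and ribosomal RNA was removed before a strand-specific library was made. By the paper, the control testes came from the mice that gave the control sperm. Control sperm sample 1 was kept out of the tests, and its values are given beside the others.

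piRNAs are small RNAs of the germ line that guide PIWI proteins to transposon transcripts and to other RNAs. In the mouse testis, long precursors are opened by a helicase, cut at the mitochondrial surface, trimmed and loaded into PIWI proteins, while Tudor domain proteins hold the machinery together in perinuclear granules. The machinery works in fetal germ cells, in spermatocytes and in round spermatids, and mature sperm are no longer transcribing.

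The depth was low for genes of this level. The expected counts (estimates of fragments per transcript) summed to between 366455 and 1058017 in the control sperm samples, 1155491 and 1254477 in cadmium sperm, and between 2606086 and 2866856 in the testes samples. RefSeq genes held 9.15 to 13.6% of these counts, and most of the others lay on noncoding entries, so that fragments assigned to a noncoding entry at a member's locus are not seen here. The labelled cells were checked with markers. Of the 8 spermatid markers, Prm2, a sperm protamine, was listed at 183.72 to 438.21 FPKM (fragments scaled to transcript length and library size) in the 6 sperm samples and at 147.34 to 280.94 in testes. The other 7 were lower in control sperm samples 2 to 4 than in both control testes, as were 40.8% of RefSeq genes. Of these markers 4 (Prm1, Tnp1, Spaca1 and Odf1) were called lower by edgeR, beside 17.8% of all features tested. Tnp1, Spaca1 and Odf1 reached the level required for the test (1 FPKM in 2 samples) through the testes samples alone. The calls therefore support nothing about the list. Prm1, the other protamine, had 40.12, 5.24, 0 and 10.97 FPKM in control sperm against 121.65 and 127.74 in control testes. Of the 7 spermatogonial markers, Kit was at 0 in all sperm samples, while Gfra1 was listed in all 6 (0.39 to 3.75 FPKM, against 19.18 to 26.95 in testes), and Uchl1, Zbtb16 and Sall4 were listed in cadmium sperm only among the sperm samples. The 7 spermatocyte markers summed to 0 to 0.71 FPKM in the control sperm samples and to 1.47 and 9.58 in cadmium sperm, where H2afx (6.40 and 1.47 FPKM) and Sycp3 (3.18 and 0) were the only ones listed. The 6 leukocyte markers summed to 0 to 4.93 FPKM in control sperm and to 5.30 and 13.77 in cadmium sperm. In cadmium sperm the defining marker Ptprc was at 0.17 and 0, Cd52 at 0 and 12.07 and Cd68 at 2.14 and 0.66. Cd4, the leukocyte marker that the paper used for purity, was at 1.69 and 1.04 there, against 0 to 0.48 in testes. In control sperm Cd4 was listed in sample 2 alone, at 0.62, and Cd52 was at 4.07 in that sample. Lyz2 went the other way, at 0.85 and 0 in cadmium sperm against 1.90 to 3.29 in testes. Csf1r was at 0.45 and 0 in cadmium sperm against 0 to 0.36 in testes. The 8 epididymal markers summed to 0 in control sperm and to 2.70 and 2.85 FPKM in cadmium sperm, from Crisp1 (2.50 and 2.31) and Cdh1 (0.20 and 0.54). The 7 Leydig markers summed to 0 to 27.49 FPKM in control sperm and to 3.47 and 6.90 in cadmium sperm, with the highest sum from Star alone in control sperm sample 3. The 8 Sertoli markers summed to 0 to 14.82 FPKM in control sperm, the highest from Amhr2 alone in sample 1, and to 2.26 and 3.87 in cadmium sperm. Their part in the results below was not tested.

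In the testes 2 of the 10 genes stood above the rest. In order of mean level per length over the 4 testes samples, Mael had 6.43 ± 2.78 FPKM (SD, n = 4), Tdrd6 5.68 ± 0.41, Ddx4 1.06 ± 0.49, Mov10l1 0.72 ± 0.25, Piwil1 0.56 ± 0.23, Piwil2 0.49 ± 0.28, Tdrkh 0.41 ± 0.27, Tdrd9 0.34 ± 0.23, Tdrd1 0.33 ± 0.12 and Piwil4 0.04 ± 0.08. The ranges of Mael and Tdrd6 overlapped, Tdrd6 did not overlap Ddx4, and from Ddx4 downwards every neighbour in this order overlapped the next. In sperm the order was another: Tdrd6 and Mov10l1 together made up all of the members' summed FPKM in 3 of the 4 control samples and most of it in both cadmium samples. The 10 genes summed to 14.22 and 19.99 FPKM in control testes, 11.96 and 18.00 in cadmium testes, 0.34, 3.61, 11.84 and 7.39 in control sperm samples 1 to 4, and 9.17 and 4.92 in cadmium sperm. This was 0.0366% ± 0.00655 (SD, n = 2) of all RefSeq FPKM in control testes and 0.0193% ± 0.0114 (SD, n = 3) in control sperm.

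**Figure D1:**
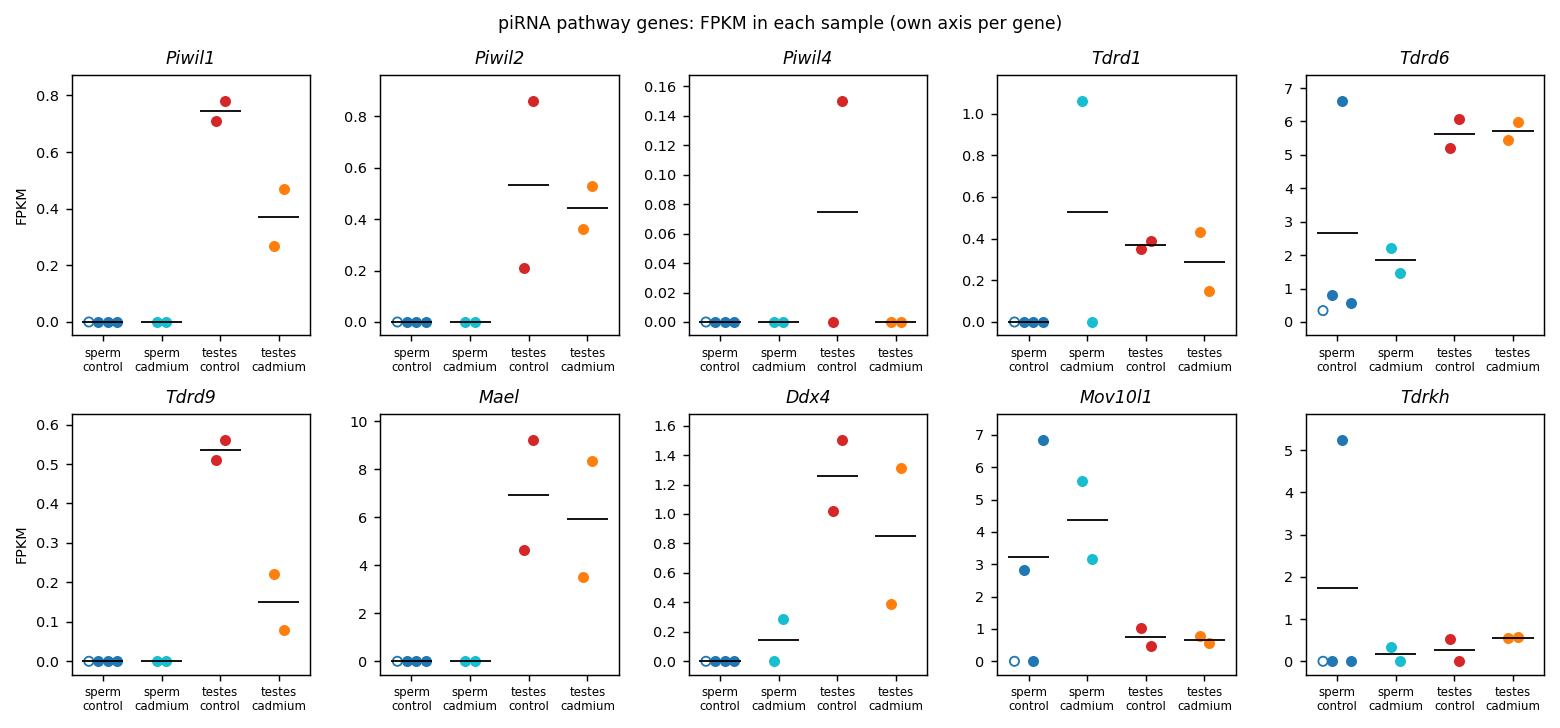
FPKM of each of the 10 genes in each sample, 1 panel and 1 linear axis per gene. Points are samples, the open point is control sperm sample 1, and bars are group means without it. Mael lies at 0 in all 6 sperm samples and at 3.51 to 9.21 in testes, while Mov10l1 is at 3.16 and 5.57 in cadmium sperm and at 0.48 to 1.04 in testes.

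Promoter sequences show what the most abundant members have at their start sites. RefSeq start windows (250 bases before to 50 after the start, build GRCm38.p6) were found for 8 members and are given for the 3 of highest level among them, Mael (chr1:166238695-166238994, minus strand), Ddx4 (chr13:112652261-112652560, minus strand) and Mov10l1 (chr15:88982744-88983043, plus strand). The starts used for Ddx4 and Mov10l1 lie inside the annotated gene. Each is written 5′ to 3′ along the gene, with matches to the GC box GGGCGG, on either strand, in capitals.
Mael: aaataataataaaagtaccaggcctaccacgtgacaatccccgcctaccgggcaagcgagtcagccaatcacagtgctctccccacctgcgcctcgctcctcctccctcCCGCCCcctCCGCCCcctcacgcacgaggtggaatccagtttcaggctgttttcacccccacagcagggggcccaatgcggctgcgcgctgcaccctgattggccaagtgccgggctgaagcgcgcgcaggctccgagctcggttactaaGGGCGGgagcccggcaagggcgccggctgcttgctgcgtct
Ddx4: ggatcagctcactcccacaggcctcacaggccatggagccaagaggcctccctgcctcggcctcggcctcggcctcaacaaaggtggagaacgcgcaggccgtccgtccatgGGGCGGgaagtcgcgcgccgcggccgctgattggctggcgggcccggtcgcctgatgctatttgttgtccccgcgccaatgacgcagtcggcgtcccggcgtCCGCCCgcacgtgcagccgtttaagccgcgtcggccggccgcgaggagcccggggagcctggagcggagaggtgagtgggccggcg
Mov10l1: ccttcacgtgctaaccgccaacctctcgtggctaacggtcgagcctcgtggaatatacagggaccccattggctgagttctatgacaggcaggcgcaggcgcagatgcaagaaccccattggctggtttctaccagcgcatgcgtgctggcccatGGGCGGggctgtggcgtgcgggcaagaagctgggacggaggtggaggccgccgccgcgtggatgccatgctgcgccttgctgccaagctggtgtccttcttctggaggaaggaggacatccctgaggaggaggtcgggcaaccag
The GC box letters were present in the windows of 5 of the 8 members, against 35.7% of 32851 RefSeq windows of this length. Mael held 3 matches, Ddx4 2 and Mov10l1 1. The MYB letters AACNGTT were in a window of 1 member (Piwil4) and in 4.45% of all windows, the CRE letters TGACGTCA in 0 members and 1.79%, and the TATA letters TATAAA in 2 members and 13.6%, both strands searched and none of these motifs containing another. A member was counted if any of its windows held the letters, and Piwil4 and Tdrd1 had more than 1 window. The shares over all RefSeq windows are per window, so the member counts are not on the same footing. A match describes the letters only, and no match says only that they are not in this window.

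The first comparison asked which transcripts of the pathway mature sperm still held. Without any filter, 8 of the 10 members had a lower mean log2(FPKM + 1) in control sperm than in control testes and 2 (Mov10l1 and Tdrkh) a higher one, beside 11452 lower and 2978 higher of the 14430 RefSeq genes listed in these samples. The members' median difference was -0.60, against -0.29 over those RefSeq genes. For 6 members (Piwil1, Piwil2, Tdrd1, Tdrd9, Mael and Ddx4) every sperm sample lay below both testes samples, while this held for 40.8% of the same RefSeq genes. No member lay above both testes samples in all 3 sperm samples, as 3.26% of RefSeq genes did. In whole testes and bulk sperm, fewer cells that hold a transcript and less of it per cell cannot be told apart. Counting was scarce enough to matter: the testes samples each listed 9 members, but 5.94 and 6.18 would be expected in the control testes samples at the total of the shallowest sperm sample, where 2 were listed. Of all RefSeq genes, 6536 and 6125 would be expected in the control testes samples at that total, against 1552 listed in that sperm sample.

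**Figure D2:**
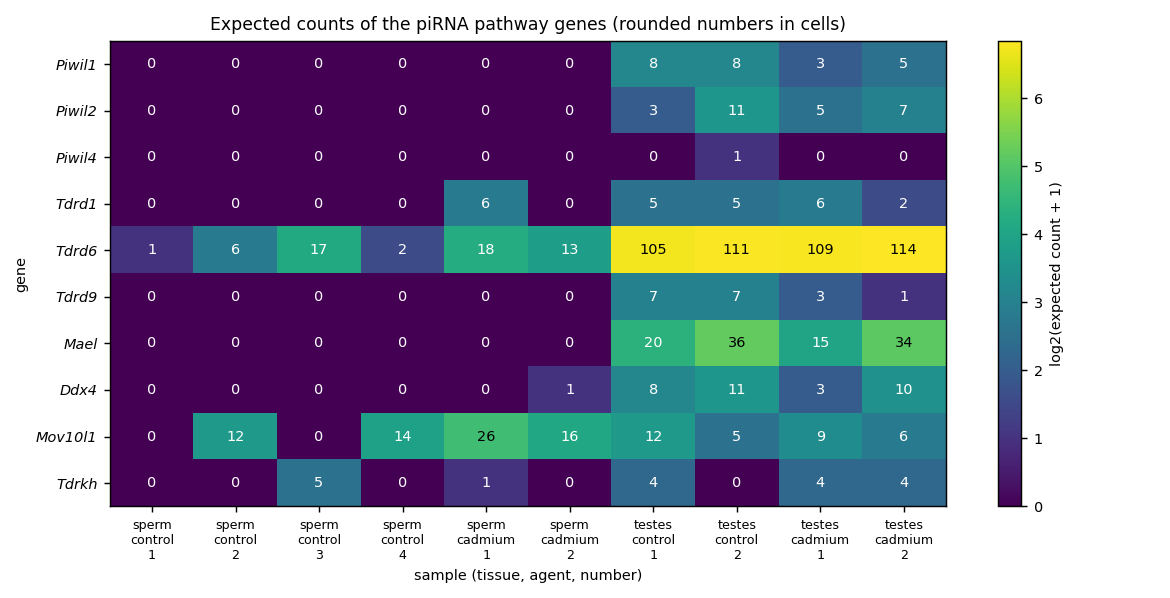
Expected counts of the 10 genes (rows) in the 10 samples (columns), with colour on a log2(count + 1) scale and the rounded count in each cell. Tdrd6 has 105 to 114 counts in every testes sample, and no other member exceeds 36 counts in any sample.

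No transcript of the 3 genes for PIWI proteins, the Argonaute relatives that carry piRNAs, was listed in sperm. Piwil1 (chr5:128736071-128755474), whose protein MIWI loads piRNAs in spermatocytes and round spermatids, had 0.71 and 0.78 FPKM in control testes, 0.27 and 0.47 in cadmium testes and 0 in all 6 sperm samples. Piwil2 (chr14:70372477-70436898), whose protein MILI acts from fetal germ cells onwards, had 0.21 and 0.86 FPKM in control testes, 0.36 and 0.53 in cadmium testes and 0 in sperm. Piwil4 (chr9:14701776-14740672), whose protein MIWI2 acts in the nucleus of fetal germ cells, was listed once, at 0.15 FPKM from 1 count in control testes sample 2. The 3 genes rested on 16, 14 and 1 expected counts over both control testes samples, so that 0 counts over control sperm samples 2 to 4, read with a floor of 3 counts over the group, made Piwil1 at least 1.88-fold and Piwil2 at least 1.65-fold lower relative to library totals. Piwil4 lay under the floor on both sides. None of the 3 reached 1 FPKM in 2 samples, the level required for the test.

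The Tudor scaffolds, which bind the methylated arginines of PIWI proteins, did not follow one pattern. Tdrd6 (chr17:43615334-43631846), a large scaffold of the chromatoid body of spermatids, had 5.21 and 6.06 FPKM in control testes, 5.45 and 5.98 in cadmium testes, 0.34, 0.80, 6.61 and 0.56 in control sperm samples 1 to 4, and 2.21 and 1.47 in cadmium sperm. Control sperm sample 3, the shallowest, stood above both control testes samples with 17 counts, while the other 3 had 1 to 6 counts, so the groups overlapped. Tdrd6 was the only member listed in all 10 samples.

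Tdrd1 (chr19:56826171-56870012), a scaffold of the intermitochondrial cement, had 0.35 and 0.39 FPKM in control testes, 0.43 and 0.15 in cadmium testes, 0 in control sperm, and 1.06 and 0 in cadmium sperm. The 1.06 came from 6 counts in cadmium sperm sample 1, the library that also listed Sycp3 and H2afx. The other spermatocyte markers were at 0 in that library. Tdrkh (chr3:94413243-94434854), a mitochondrial Tudor protein needed for piRNA trimming, had 0.53 and 0 FPKM in control testes, 0.54 and 0.57 in cadmium testes, 0, 0, 5.23 and 0 in control sperm, and 0.33 and 0 in cadmium sperm. Its high sperm value was 5 counts in sample 3, the library where Star, a Leydig cell gene, was also high (27.49 FPKM). The other Leydig markers were at 0 in that library. The locus overlaps Oaz3, a spermatid gene, which was listed at 0 FPKM in that sample and at 9.38 to 13.5 in testes.

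The helicases split. Ddx4 (chr13:112598333-112652633), the germ cell RNA helicase VASA, had 1.02 and 1.5 FPKM in control testes, 0.39 and 1.31 in cadmium testes, 0 in the 4 control sperm samples, and 0 and 0.29 in cadmium sperm. All sperm samples lay below all testes samples. Its counts were given to a transcript of 2771 bases in the testes samples numbered 1 and to one of 2849 bases in those numbered 2, in control and cadmium alike, and the 1 count of cadmium sperm sample 2 to the shorter one.

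Tdrd9 (chr12:111971488-112068854), a helicase with a Tudor domain that works with MIWI2, had 0.51 and 0.56 FPKM in control testes, 0.22 and 0.08 in cadmium testes and 0 in all sperm. Mov10l1 (chr15:88982891-89055152), the helicase that feeds piRNA precursors into processing, had 1.04 and 0.48 FPKM in control testes, 0.79 and 0.55 in cadmium testes, 0, 2.81, 0 and 6.83 in control sperm, and 5.57 and 3.16 in cadmium sperm. Control sperm samples 2 and 4 and both cadmium sperm samples stood above every testes sample, and control sperm samples 1 and 3, which had the fewest RefSeq genes listed, were at 0. A single RefSeq transcript of 4052 bases carried all of these counts (12 and 14 in control sperm, 26 and 16 in cadmium sperm).

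Mael (chr1:166201385-166238744), the HMG box protein Maelstrom of the germ cell granules, had 4.64 and 9.21 FPKM in control testes, 3.51 and 8.36 in cadmium testes and 0 in all 6 sperm samples. No sperm sample had a single count, against 20 and 36 in control testes. With the floor of 3 counts this made Mael at least 6.59-fold lower in control sperm relative to library totals (8.04-fold with sample 1 included) and at least 7.09-fold lower in cadmium sperm. Mael was lower in both testes samples numbered 1 than in both numbered 2. The markers of a cell type did not move together between these samples. Of the spermatocyte markers, Sycp3 (0.97 and 0.98 against 4.65 and 2.75 FPKM) and Ccna1 were also lower there. H2afx was higher (1.48 and 1.73 against 0.82 and 0.86). Of the spermatid markers, Prm2 was higher (280.94 and 247.66 against 147.34 and 168.77), while Prm1, Tnp2, Spaca1, Acrv1 and Akap4 were lower. Their part in the Mael values was not tested.

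In the edgeR quasi-likelihood test of control sperm against control testes, 4 members passed the filter of 1 FPKM in 2 samples. Mael and Ddx4 passed it through the testes samples alone, so that a count of calls among the tested members supports nothing about the list. Of the 24432 features tested, 22% were called (adjusted p under the threshold and more than 2-fold), 17.8% lower and 4.19% higher in sperm, and of RefSeq genes 24.6%. With library totals alone in place of TMM, 39% of the calls were higher rather than 19.1%. Mael fell (log2 fold change -7.09, SE 2.48, Benjamini-Hochberg adjusted p = 0.0468 by edgeR), and so did Ddx4 (-5.51, SE 2.06, adjusted p = 0.0468 by edgeR). Both fitted changes set 0 counts in sperm against a prior count and bound nothing, and for Ddx4 the floor gave at least 2.24-fold. Tdrd6 had -1.58 (SE 1.08, adjusted p = 0.293 by edgeR), close to the median of -1.24 over all features, and Mov10l1 had 1.96 (SE 1.56, adjusted p = 0.374 by edgeR). Neither difference exceeded the spread between the sperm samples. Both calls ended with library totals alone (adjusted p = 0.0502 for each by edgeR), with no filter (0.0875 for Mael and 0.161 for Ddx4) and after thinning to the smallest total (0.342 and 0.505), and DESeq2 called Mael and gave Ddx4 no adjusted p. They also rested on few libraries. Without control sperm sample 2 or 4 neither was made (adjusted p = 0.0591 and 0.168 for Mael by edgeR), and without either testes sample neither gene passed the filter. Without sperm sample 3, Tdrd6 was called (-2.90, adjusted p = 0.0176 by edgeR) and Ddx4 was not (adjusted p = 0.105 by edgeR).

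In cadmium sperm against cadmium testes, 7 of the 10 members had a lower mean log2(FPKM + 1) in sperm and 2 a higher one, with a median difference of -0.44 against -0.15 over 14709 RefSeq genes. Both sperm samples lay below both testes samples for 7 members, as for 34.5% of RefSeq genes, and above them for Mov10l1, as for 16.6%. Of the 25780 features tested 31.7% were called, 15.4% lower and 16.3% higher, and of RefSeq genes 39.7%. The 3 members tested were called, of which Mov10l1 passed the filter through the sperm samples alone and Mael through the testes samples alone, so that this count supports nothing about the list. Mov10l1 rose (log2 fold change 2.91, SE 0.74, adjusted p = 0.000651 by edgeR), from 0.67 ± 0.17 FPKM in testes to 4.37 ± 1.70 in sperm (SD, n = 2 each). Mael fell (-7.19, SE 1.84, adjusted p = 0.000712 by edgeR), with 0 counts in sperm. Tdrd6 fell by 1.43 on the log2 scale (SE 0.59, adjusted p = 0.0469 by edgeR), from 5.72 ± 0.37 to 1.84 ± 0.52 FPKM, beside a median of -0.29 over all features. The Tdrd6 call ended with no filter (adjusted p = 0.0605 by edgeR), DESeq2 (adjusted p = 0.1002), all 3 limma settings, all 9 samples in 1 fit (adjusted p = 0.169 by edgeR) and thinning (adjusted p = 0.655 by edgeR), and that of Mov10l1 with the limma settings (adjusted p = 0.0616 to 0.0907 by limma), all 9 samples in 1 fit (0.107) and thinning (0.0633), while Mael lost its call after thinning (adjusted p = 0.266 by edgeR). Leaving out any of the 4 samples ended the Tdrd6 call (adjusted p = 0.113 to 0.271 by edgeR), and leaving out testes sample 1 ended that of Mov10l1 (adjusted p = 0.104 by edgeR), while Mov10l1 without either sperm sample and Mael without either testes sample no longer passed the filter. This comparison and the control one share no samples.

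**Figure D3:**
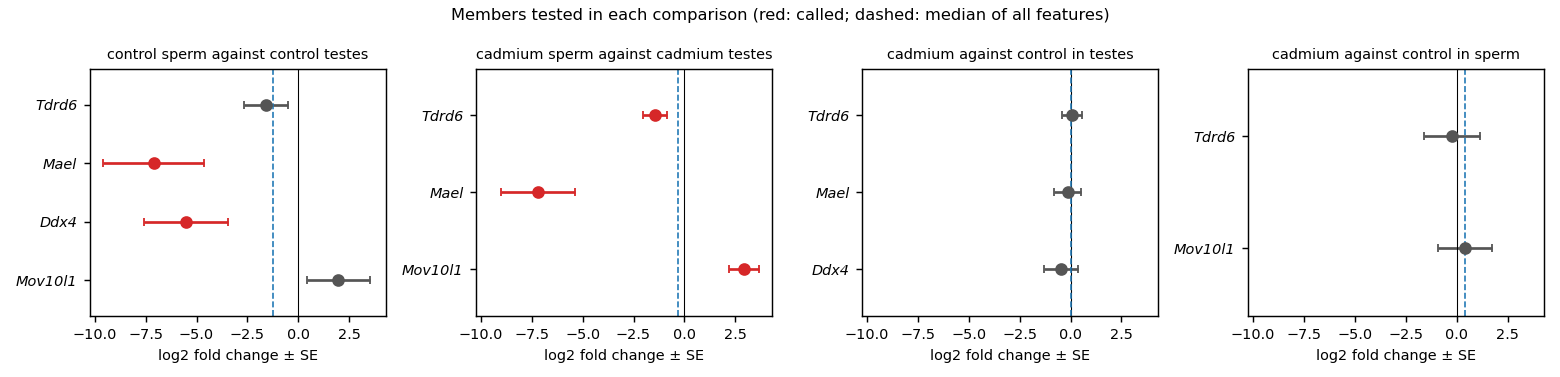
Log2 fold change with its SE (bars) for the members tested in each of 4 comparisons, from edgeR. Red points were called, the solid line is 0 and the dashed line the median of all features tested. Mael lies near -7 in sperm against testes, from 0 counts in sperm, and all members are grey in both cadmium against control comparisons.

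The other question was whether cadmium changed these transcripts. In testes, 3 members were tested and 0 called, beside 0.0225% of 26724 features. Tdrd6 had a log2 fold change of 0.09 (SE 0.48), Mael -0.14 (SE 0.65) and Ddx4 -0.46 (SE 0.83), each with adjusted p = 1 by edgeR, and 0 members had an unadjusted p under 0.05. DESeq2 and limma also called 0. Below the filter, Piwil1 (3 and 5 counts against 8 and 8) and Tdrd9 (3 and 1 against 7 and 7) were lower in both cadmium testes than in both controls, as were 11.2% of 15454 RefSeq genes, and Tdrkh was higher in both, as were 9.24%. Over all 10 members the median difference in log2(FPKM + 1) was -0.10, against -0.01 over those RefSeq genes.

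In sperm, 2 members were tested for cadmium against control and 0 called, beside 0.0824% of 20640 features. Mov10l1 had a log2 fold change of 0.40 (SE 1.33) and Tdrd6 -0.24 (SE 1.38), both with adjusted p = 1.0 by edgeR, beside a median of 0.43 over all features. Neither DESeq2 nor limma called a member, and 0 had an unadjusted p under 0.05. The direction of Tdrd6 turned without control sperm sample 3 (1.21), and that of Mov10l1 too (-0.19). No member had groups that did not overlap, while 17.3% of 10612 RefSeq genes were higher and 0.735% lower in both cadmium samples. Cadmium sperm listed 4 and 3 members and control sperm samples 2 to 4 listed 2 each, and at the total of the shallowest library 3.21 and 2.28 would be expected in cadmium sperm against 1.92 to 2. All RefSeq genes were also more numerous there, with 5478 and 5021 expected at that total against 4713, 1552 and 3176.

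The difference between the cadmium effect in sperm and that in testes was tested in 1 model of 9 samples. It was called for 0 of the 4 members tested, beside 0.0396% of 32814 features, with 0 members at an unadjusted p under 0.05. It was 0.42 (SE 1.53) for Mov10l1 and -0.38 (SE 1.29) for Tdrd6 on the log2 scale, each with adjusted p = 1 by edgeR.

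The other genes of the pathway were given by a list of 21, of which 18 were listed in a table. Without a filter 17 of the 18 had a lower mean log2(FPKM + 1) in control sperm than in control testes, with a median difference of -0.595, beside -0.602 for the members. The test took 5 of them and 1 was called, beside 22% of all features tested. Stk31, a Tudor domain partner of PIWI proteins, fell (2.83 and 2.04 FPKM in control testes, 0 in control sperm, adjusted p = 0.0468 by edgeR). It passed the filter through the testes samples alone, so that this count supports nothing about the list. In cadmium sperm Stk31 was at 2.42 and 0.25 FPKM, against 1.86 and 1.84 in cadmium testes. There 0 of the 6 genes tested were called, beside 31.7% of all features. With cadmium against control, 0 of 7 were called in testes, 0 of 5 in sperm and 0 of 8 in the difference between the tissues.

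**Figure D4:**
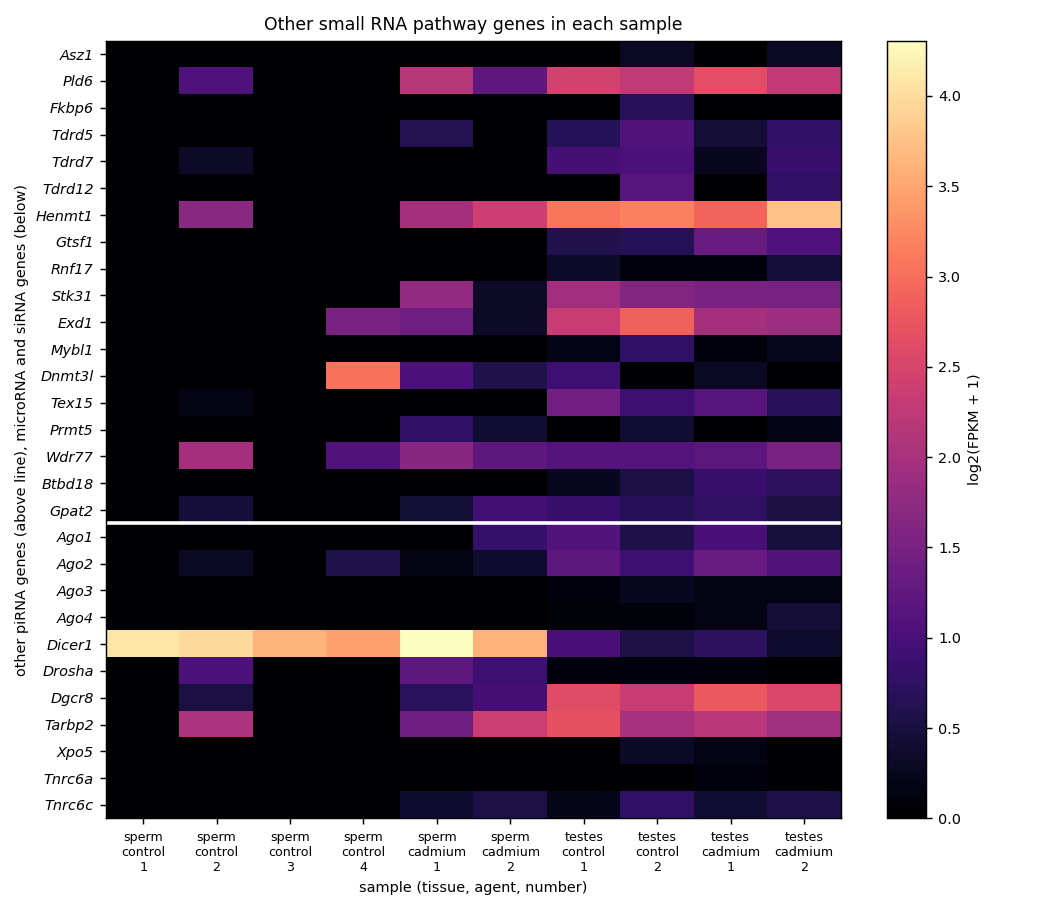
log2(FPKM + 1) of 18 other piRNA pathway genes (above the white line) and 11 microRNA and siRNA genes (below) in each of the 10 samples. Most piRNA pathway rows are dark in control sperm, and the Dicer1 row is bright in all 6 sperm samples, with 10.17 to 18.78 FPKM against 0.28 to 0.98 in testes.

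The genes whose profile over the 10 samples was nearest to that of Piwil1, among 4739 RefSeq genes of at least 1 FPKM on average in testes, were Sycp1 (root mean square distance 0.19 on the log2(FPKM + 1) scale after centring), 4931409K22Rik (0.19) and Smc1b (0.20). Sycp1 and Smc1b act in meiosis, and Sycp1 was at 0 in all 6 sperm samples, as Piwil1 was. To the mean profile of the members the nearest were Sqle (0.21), Hbp1 (0.22) and Sgsh (0.22). These distances describe 10 samples that share their libraries and depth. The 3 genes nearest to Piwil1 averaged 1.02, 1.005 and 1.007 FPKM in testes, just over the cut of 1, while Piwil1 averaged 0.56. The distance keeps the size of the change, so the cut favoured genes just above it, and the ranking supports nothing about a shared function.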

How the data were processed

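RNA-seq tables of 10 mouse samples were used. The authors trimmed and filtered the reads, aligned them and deposited, for each transcript above 0 in a sample, an expected count (an estimated count, 29.3 to 40.3% of them not whole) and an FPKM, scaled to transcript length and library size. The methods name SOAPaligner/SOAP2 for alignment, the submitters' processing notes list HISAT and mm10 without a role, and the counting tool is not given in the sources used here. Unlisted transcripts were taken as 0.

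Expected counts and FPKM were summed by gene, and the counts rounded. Where 2 or more samples of a comparison reached 1 FPKM, the feature entered glmQLFit and glmQLFTest (the quasi-likelihood method of edgeR 4.0.16, R 4.3.3) with TMM factors, without control sperm sample 1, which the published analysis had dropped, and was called at a Benjamini-Hochberg adjusted p under 0.05 over all features and more than 2-fold. The SE is the log2 fold change divided by the square root of F. Alternatives used DESeq2 1.42.0, limma 3.58.1 (pseudocounts of 1 and 0.1), other scalings, filters, samples and a replicate block. The fits were tested on simulated data. Tables and figures used Python 3.11.15, pandas 2.3.3, numpy 2.4.6 and matplotlib 3.10.9.

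All 10 members are named. Of other lists, each gene that passed the test could be named, and for likeness the 3 nearest genes. Promoters are shown for at most 4 members of highest mean FPKM in control testes, where a window was found. Members and lists were chosen with earlier results of these data known. A floor of 3 counts over a group bounds a value of 0 and covers counting error only. The labels do not say that cadmium or testes samples came from separate animals. The paper describes the control testes as biological replicates, harvested from the mice that gave the control sperm. The tests did not model this sharing of animals between control sperm and control testes. The p-values measure the spread between these samples, which may be technical in the cadmium groups.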

Additional observations from a re-analysis of the deposited data

Results flagged for a closer look

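Of 3 members' values tested in the 4 control sperm samples, 2 had a highest sample whose gap to the next was larger than Dixon's limit, which chance passes in about 1 in 20 groups of untied values. Tdrd6 was at 6.61 FPKM in control sperm sample 3 against 0.34 to 0.80 in the other samples, a gap of 0.927 of the whole range. Tdrkh was at 5.23 FPKM in the same sample against 0 in the others, a gap of 1.0 of the range, which 3 samples at 0 give for any value of the other sample, so that this gap and the chance rate say nothing about Tdrkh. Sample 3 was the shallowest library (366455 expected counts), and the values rest on 17 and 5 counts. In the same sample Star, a Leydig cell gene, was at 27.49 FPKM, against 0 to 3.79 in the other control sperm samples and 14.28 and 14.72 in control testes. The other Leydig markers were at 0 in sample 3, and the part of Star in these values was not tested.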

How the results depend on the processing

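The alternatives changed the calls of members only between sperm and testes. In control samples the count of 2 members called fell to 0 with library totals alone, with no filter, with filterByExpr and after thinning to the smallest total, and to 1 with DESeq2 (which gave Ddx4 no adjusted p), with transcripts in place of gene sums and with all 9 samples in 1 fit. It ranged from 0 to 2 when each replicate was left out. In cadmium samples the count of 3 fell to 2 with no filter, DESeq2 and transcripts in place of gene sums, to 1 with limma on log2(FPKM + 1), log2(FPKM + 0.1) and rescaled FPKM and with all 9 samples in 1 fit, to 0 after thinning, and to 0 to 1 when each replicate was left out. In the 3 cadmium effects the count was 0 in every alternative run. The cause was not tested.

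Samples with the same number deviated together in testes (r = 0.45 over 26724 features) and not in sperm (-0.04), and with 2 pairs the replicate number was not read as a pairing. With the replicate number as a block, on samples 1 and 2 of each group, 0 members were called in control sperm against testes (0 also without the block on these samples) and 3 in cadmium.

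Directions turned for effects that were not called. For cadmium against control in testes, Tdrd6 had -0.24 after thinning, and leaving out a replicate gave -0.20 to 0.43 for Tdrd6, -1.15 to 0.68 for Mael and -1.83 to 0.25 for Ddx4. In sperm, Tdrd6 had 0.021, 0.26 and 0.10 with the 3 limma settings, 0.10 with control sperm sample 1, 1.65 with the block and 1.498 on the same samples without it. Leaving out a replicate gave -0.84 to 1.21 for Tdrd6 and -0.19 to 1.22 for Mov10l1. For the difference between tissues, Tdrd6 had 0.17 with no filter, 0.11 with filterByExpr, 0.0019, 0.24 and 0.10 with limma, 0.45 with RefSeq genes alone, 0.052 with sample 1, 1.76 with the block and 1.66 without it, and -0.85 to 1.19 with a replicate left out, which gave -0.027 to 1.20 for Mov10l1.

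Features called ranged from 880 to 7129 (5369 as reported) in control and 1619 to 8168 (8168) in cadmium sperm against testes, 0 to 88 (6) for cadmium in testes, 0 to 1168 (17) in sperm and 0 to 26 (13) for the difference. Other scalings moved the median of all features from -1.24 to -1.11 in control and from -0.29 to -0.55 in cadmium sperm against testes (library totals alone), and from 0.43 to 0.27 for cadmium in sperm (RLE factors). By expected counts in place of FPKM, the members held 0.0577% of RefSeq values in control testes, 0.0377% in control sperm, 0.0537% in cadmium testes and 0.0277% in cadmium sperm. Expected numbers of members at the smallest total were computed after seeing the data.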

Other observations

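Among 12 genes of the microRNA and siRNA pathways, of which 11 were listed, Dicer1, the RNase III that cuts microRNA precursors and has no part in making piRNAs in the mouse, was higher in sperm. It had 15.94, 14.83, 11.37 and 10.17 FPKM in control sperm samples 1 to 4 and 18.78 and 11.22 in cadmium sperm, against 0.98 and 0.46 in control and 0.64 and 0.28 in cadmium testes. Every sperm sample lay above every testes sample, with a log2 fold change of 3.91 (SE 0.94, adjusted p = 0.00234 by edgeR) in control and 5.29 (SE 0.66, adjusted p = 1.00e-13 by edgeR) in cadmium samples. Dgcr8, the partner of Drosha in microRNA processing, fell: it had 5.15 and 4.02 FPKM in control testes and 0, 0.45, 0 and 0 in control sperm (-4.40, SE 1.67, adjusted p = 0.0471 by edgeR), and 5.86 and 4.93 against 0.62 and 0.95 in the cadmium samples (-2.50, SE 0.74, adjusted p = 0.00421 by edgeR). Ago2, the slicing Argonaute, fell in cadmium sperm against cadmium testes (-2.39, SE 0.94, adjusted p = 0.0366 by edgeR), with 0.11 and 0.30 FPKM against 1.53 and 1.15. In these comparisons Dicer1 passed the filter through the sperm samples alone, and Dgcr8 and Ago2 through the testes samples alone. Their calls therefore support nothing about the list. No gene of this list was called for cadmium against control by edgeR, with 3 tested in each tissue.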
